A study of Mus musculus with 25 samples.

Results

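Nuclear genes of oxidative phosphorylation were followed in astrocytes of the mouse cortex. They were chosen by gene name: the table rows beginning with Ndufa, Ndufb, Ndufc, Ndufs, Ndufv, Uqcr, Atp5 or one of Cox4 to Cox8, together with Sdha, Sdhb, Sdhc, Sdhd and Cyc1, and without the 9 names that contain "-ps". This gave 98 of the 54429 rows. By their textbook assignment 44 belong to complex I, 4 to complex II, 9 to complex III, 20 to complex IV and 17 to complex V. The other 4 (Cox6c2, Ndufa11b, Ndufb4c and Ndufs6b) are annotated as processed pseudogenes in GENCODE M21. Of the complex I genes, 8 are assembly factors (the Ndufaf genes) that do not stay in the finished enzyme.

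The cells came from C57BL/6J mice, were immunopanned with a HepaCAM antibody and cultured, and their RNA was sequenced in 25 libraries of 9 groups. An EGFR inhibitor was added on day 2 in vitro in 3 libraries, with 3 DMSO libraries beside them, and a P53 inhibitor was added on day 2 in 3 further libraries with 3 DMSO libraries of their own. HBEGF, a ligand of the EGF receptor, was withdrawn in 2 libraries and supplied in 2, in each case on the day the cells were prepared. Untreated cultures of days 2, 7 and 14 in vitro gave 3 libraries each. The inhibitors' names and doses, the age of the mice and whether libraries of a group came from separate cultures are not stated, so p-values measure the spread between libraries, which may be partly technical.

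Oxidative phosphorylation makes ATP in the inner mitochondrial membrane. Complexes I and II pass electrons from NADH and succinate to coenzyme Q, complex III passes them on to cytochrome c, complex IV passes them to oxygen, and complex V, the ATP synthase, uses the resulting proton gradient. Most subunits are encoded in the nucleus, and a few core subunits of complexes I, III, IV and V are encoded on the mitochondrial genome. Astrocytes are known for high glycolysis beside an active respiratory chain. Core subunits here are those that carry the catalytic centres, the electron path or the rotor and catalytic head. Accessory subunits surround them.

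The libraries held between 4011420 and 9695686 reads counted to genes (median 6109743), as recovered from the deposited RPKM. The 10 astrocyte markers were all tested, with a summed level between 75.8 RPKM in a day 2 library and 389 RPKM in an EGFR inhibitor library. The 6 oligodendrocyte precursor markers were all tested too, with a summed level between 92.5 RPKM in a withdrawal library and 510 RPKM in a P53 DMSO library. Of 6 oligodendrocyte markers 5 were tested, and of 9 neuron markers 3. All 7 microglia markers and all 5 endothelial markers were below the threshold for testing, and Tmem119, a microglia marker, was at 0 in every library. In bulk RNA, fewer cells of a type and less RNA per cell cannot be told apart.

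The members differed widely in level. The deposited RPKM divides reads by the whole span of a gene, introns included, so levels are compared between genes only after rescaling to exon length. Per kilobase of exon and averaged over the 9 groups, Atp5b, the catalytic beta subunit of the ATP synthase, was highest at 684 RPKM. It was followed by Atp5a1, the alpha subunit, at 227 and by Cox6a1, a complex IV subunit, at 205. Cox4i1, Ndufc2, Uqcr10 and Cox8a came next, at 135, 135, 128 and 114 RPKM. Cox4i1 and Ndufc2 lay so close together that their ranges over the groups, 115 to 159 and 95.4 to 168, overlapped widely. At the low end stood tissue-restricted isoforms of complex IV. Cox8c had 0 reads in all libraries, Cox7b2 had 4 and Ndufa4l2 had 25. Of the 98 genes, 84 reached 1 RPKM in at least 2 libraries and were tested. The 14 that did not were Ndufs4, Ndufs5, Ndufaf2, Ndufaf5, Ndufaf6, Atp5s, Atp5g2, Cox4i2, Cox7a1, Cox7b2, Cox8b, Cox8c, Ndufa4l2 and Ndufb4c. Several small subunits have near-identical processed copies elsewhere in the genome, and how reads that match more than one place were counted is not given, so their levels are uncertain.

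Atp5b alone took a large part of the reads of all 98 genes: 27.6 ± 0.987% with EGFR inhibitor and 38.9 ± 1.53% with DMSO (SD, n = 3 each). The 98 genes took 0.591, 0.582 and 0.559% of all counted reads in the EGFR inhibitor libraries, against 0.913, 0.999 and 1.02% in their DMSO libraries. The share was 0.568 and 0.552% after HBEGF withdrawal, against 0.962 and 0.933% with HBEGF. Neither pair of groups overlapped. With P53 inhibitor the share was 0.939, 0.984 and 0.838%, against 0.681, 0.802 and 0.799% with DMSO, again without overlap. On days 2, 7 and 14 it averaged 0.947 ± 0.112, 0.876 ± 0.0184 and 0.918 ± 0.119% (SD, n = 3 each), which overlap. Without Atp5b the share averaged 0.418 ± 0.0178% with EGFR inhibitor and 0.596 ± 0.0214% with DMSO (SD, n = 3 each), and 0.413 ± 0.00689% after withdrawal and 0.596 ± 0.0452% with HBEGF (SD, n = 2 each). Also without Atp5b, the share was 0.522 to 0.602% with P53 inhibitor and 0.465 to 0.54% with its DMSO, which overlap. Reads of the mitochondrial genome took 25.4 ± 1.84% with EGFR inhibitor and 20.7 ± 0.233% with DMSO. They took 30.8 ± 1.09% after withdrawal and 19.7 ± 0.786% with HBEGF. Most were mitochondrial ribosomal RNA, at 23.35 ± 1.77 and 18.65 ± 0.237% with EGFR inhibitor and DMSO. It took 28.9 ± 1.31% after withdrawal and 17.7 ± 0.732% with HBEGF. Genes for proteins encoded on that genome summed to 15290 ± 553 and 16100 ± 300 RPKM with EGFR inhibitor and DMSO. Their sum was 14600 ± 1726 RPKM after withdrawal and 16120 ± 506 RPKM with HBEGF. Counted only among reads outside that genome, the share of the 98 genes was 0.773 ± 0.00568% with EGFR inhibitor and 1.23 ± 0.074% with DMSO, and 0.809 ± 0.0283% after withdrawal and 1.18 ± 0.014% with HBEGF.

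**Figure D1:**
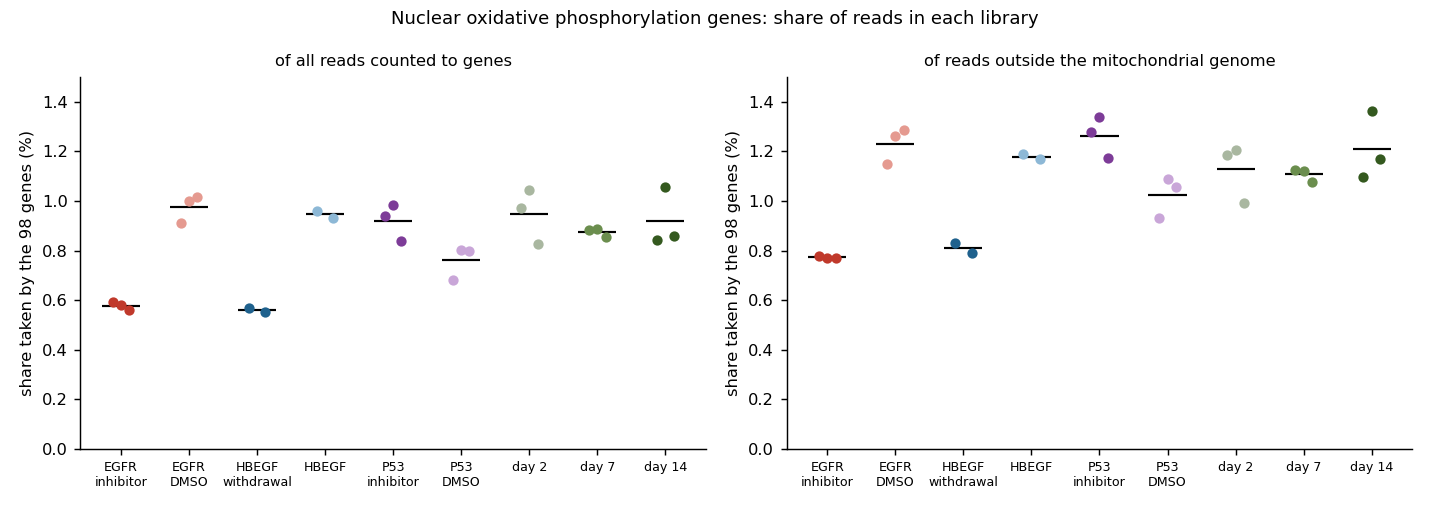
Share of counted reads taken by the 98 nuclear oxidative phosphorylation genes in each of the 25 libraries, in percent of all reads (left) and of reads outside the mitochondrial genome (right). Points are libraries and lines are group means. The 3 EGFR inhibitor libraries (0.559 to 0.591% on the left) and the 2 withdrawal libraries (0.552 to 0.568%) lie below all other libraries.

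EGFR inhibitor against DMSO asked what happens to these transcripts when EGF receptor signalling is blocked. With the inhibitor 32 of the 84 tested genes were called lower and 0 higher (limma, Benjamini-Hochberg adjusted p below 0.05 over 13850 genes). Over all tested genes 22.2% were called lower and 16.3% higher. Changes are on the scale of log2(RPKM + 1), which understates those of low genes. The median log2 change was -0.33 over the 84 genes and -0.02 over all. The range over the members ran from -1.26 to 0.32. Of genes averaging 5 RPKM or more over all libraries, 39.1% of 46 members and 41.0% of 2354 genes were lower, with medians of -0.37 and -0.33. The members' share was thus above that of all tested genes and, from 5 RPKM upwards, near that of all genes. This floor is on the deposited scale, which divides by gene span, and so does not match genes by level per exon. Of the 84 genes 50 (59.5%) were lower with no overlap between the groups, against 28.7% of all tested genes. With each library left out in turn 23 of the 32 kept their call in every fit, and those that did not were Sdhd, Uqcrc1, Cox6c, Cox7a2, Atp5d, Atp5k, Atp5o, Ndufc1 and Ndufa12. Median-of-ratios scaling kept 26 of the 32 and called Cox7a2l higher, while all genes split into 2969 higher and 2459 lower, against 2261 higher and 3076 lower under the deposited scaling.

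Among called members the largest falls were in 5 genes. Atp5b (ENSMUSG00000025393.12, chr10:128083273-128090391, plus strand, GRCm38) had 223, 222 and 225 RPKM with EGFR inhibitor, against 477, 562 and 565 RPKM with DMSO. The groups lay far apart and the log2 change was -1.25 ± 0.11 (SE, adjusted p = 1.8e-07). Cyc1 (chr15:76343523-76346260, plus strand), the cytochrome c1 of complex III, had 18.9, 23.2 and 16.9 RPKM with the inhibitor and 45.4, 51.6 and 47.8 RPKM with DMSO. Its log2 change of -1.26 ± 0.13 (adjusted p = 9.62e-07) was the largest of all members. Atp5g3 (chr2:73908447-73911326, minus strand), one of 3 genes for the rotor ring of complex V, had 42.6, 35.8 and 38.8 RPKM with the inhibitor and 83.9, 87.7 and 89.0 RPKM with DMSO. Its groups did not overlap either, and the log2 change was -1.14 ± 0.12 (adjusted p = 1.7e-06). Ndufs8 (chr19:3908863-3912774, minus strand), a core complex I subunit that holds iron-sulphur clusters, had 8.03, 7.45 and 6.58 RPKM with the inhibitor and 15.1, 18.01 and 19.7 RPKM with DMSO (log2 change -1.15 ± 0.15, adjusted p = 8.8e-06). Ndufaf4 (chr4:24898083-24905001, plus strand), a complex I assembly factor, had 3.70, 2.72 and 2.81 RPKM with the inhibitor and 9.59, 7.07 and 7.03 RPKM with DMSO (log2 change -1.12 ± 0.16, adjusted p = 2.56e-05). In both genes every inhibitor library was below every DMSO library.

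HBEGF withdrawal against HBEGF asked the same of removal of the ligand, with 2 libraries on each side and none shared with the inhibitor experiment. After withdrawal 30 of the 84 genes were called lower and 1, Cox6b2, higher. Of all tested genes 22.5% were called lower and 10.0% higher. The median log2 change was -0.31 over the members and -0.10 over all genes. Without HBEGF replicate 1 these medians were -0.09 and -0.06, and without HBEGF replicate 2 they were -0.47 and -0.11. Among genes of at least 5 RPKM, 39.1% of 46 members and 43.7% of 2354 genes were lower. The counts here depend on the scaling. With median-of-ratios scaling, which moved the median of all genes to 0.02, 17 members were called lower and 3 higher (Cox6b2, Ndufb2 and Ndufa13), and the members' median was -0.06. All genes then split into 2297 higher and 1798 lower, against 1390 higher and 3121 lower under the deposited scaling. With mitochondrial genome reads left out of the scaling, 20 members were lower and 2 higher, and all genes split into 1982 higher and 2167 lower. Without HBEGF replicate 1 the count of lower members was 19, and in a fit of these 4 libraries alone no gene of the 13850 was called, while 3926 had an unadjusted p below 0.05. With each library left out in turn 18 of the 30 kept their call in every fit.

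Among called members the same 5 genes had the largest falls, Atp5k equalling Ndufs8. Atp5b had 210 and 203 RPKM after withdrawal, against 468 and 517 RPKM with HBEGF (log2 change -1.25 ± 0.13, adjusted p = 2.61e-06). Cyc1 had 22.5 and 21.1 RPKM after withdrawal, against 56.9 and 54.4 RPKM with HBEGF (-1.31 ± 0.16, adjusted p = 8.61e-06). Atp5g3 had 40.1 and 39.1 RPKM after withdrawal, against 98.3 and 97.5 RPKM with HBEGF (-1.28 ± 0.15, adjusted p = 6.92e-06). Libraries of one condition lay close together in all 3 genes. Ndufaf4 had 2.39 and 3.79 RPKM after withdrawal, against 9.23 and 9.41 RPKM with HBEGF (-1.36 ± 0.19, adjusted p = 4.24e-05). Ndufs8 had 7.59 and 9.92 RPKM after withdrawal, against 16.1 and 18.2 RPKM with HBEGF (-0.91 ± 0.18, adjusted p = 0.000769). No group overlapped in these genes, and each kept its call with every library left out in turn and under both other scalings. Atp5k, a small membrane subunit of complex V, changed by -0.91 ± 0.26 (adjusted p = 0.0116), but leaving out HBEGF replicate 1 gave an adjusted p of 0.123, leaving out HBEGF withdrawal replicate 2 gave 0.0548 and median-of-ratios scaling gave 0.0525.

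**Figure D2:**
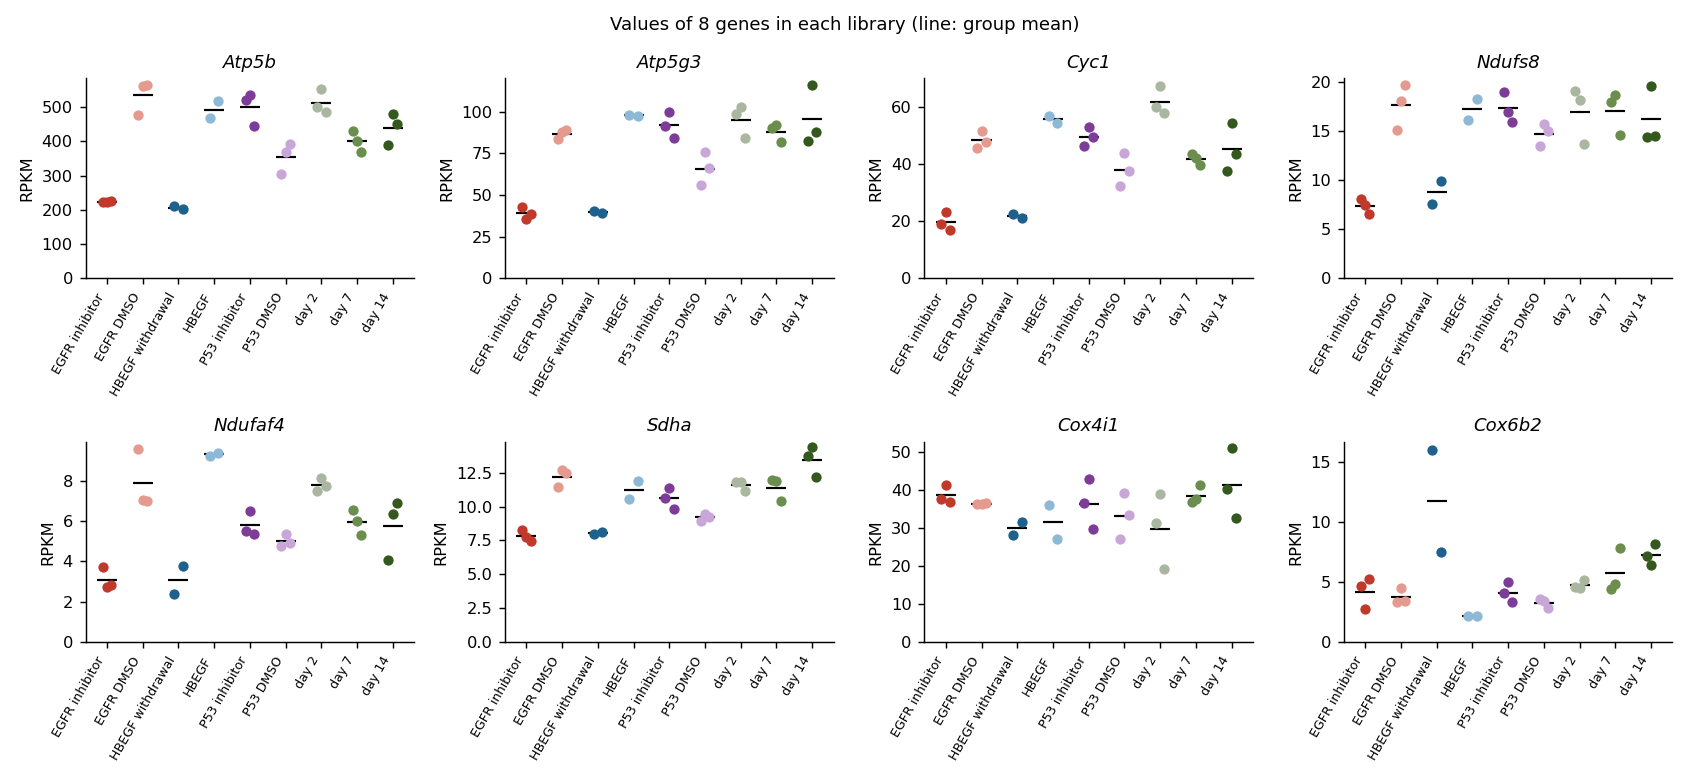
RPKM of 8 genes in each library of the 9 groups. Points are libraries and lines are group means. Atp5b, Atp5g3, Cyc1, Ndufs8 and Ndufaf4 are lower in all EGFR inhibitor and HBEGF withdrawal libraries than in their controls, Cox4i1 shows no such difference, and Cox6b2 stands out in the withdrawal libraries at 16.0 and 7.48 RPKM.

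Promoters are shown for Atp5b, Atp5g3, Ndufs8 and Ndufaf4, which fell in both comparisons, and for Cox6b2, which was higher after withdrawal. The windows run from 250 bases before to 50 bases after the annotated start (RefSeq, GRCm38.p6), 5′ to 3′ on the gene's strand. A window was found for 74 of the 98 genes. Capitals mark any of the 5 motifs searched on both strands: GCATGCGC (core of the NRF1 motif), CCGGAAGT (ETS), AAGATGGC (YY1), AAGGTCA (ESRRA site) and CCAAT (NFY). Overlapping matches run together. The windows are chr10:128083057-128083356 (plus strand) for Atp5b, chr2:73911277-73911576 (minus) for Atp5g3, chr19:3912725-3913024 (minus) for Ndufs8, chr4:24897833-24898132 (plus) for Ndufaf4 and chr7:4753045-4753344 (minus) for Cox6b2.
Atp5b: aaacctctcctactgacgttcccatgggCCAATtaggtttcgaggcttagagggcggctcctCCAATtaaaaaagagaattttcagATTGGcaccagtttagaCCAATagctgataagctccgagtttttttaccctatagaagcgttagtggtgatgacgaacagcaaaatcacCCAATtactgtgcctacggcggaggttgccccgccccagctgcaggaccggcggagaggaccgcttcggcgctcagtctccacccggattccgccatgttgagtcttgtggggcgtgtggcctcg
Atp5g3: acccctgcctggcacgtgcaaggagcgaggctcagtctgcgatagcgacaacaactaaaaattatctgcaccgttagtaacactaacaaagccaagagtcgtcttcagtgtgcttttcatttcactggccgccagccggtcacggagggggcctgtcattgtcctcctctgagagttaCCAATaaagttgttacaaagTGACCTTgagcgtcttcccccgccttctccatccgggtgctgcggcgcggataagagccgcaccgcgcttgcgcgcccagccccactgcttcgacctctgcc
Ndufs8: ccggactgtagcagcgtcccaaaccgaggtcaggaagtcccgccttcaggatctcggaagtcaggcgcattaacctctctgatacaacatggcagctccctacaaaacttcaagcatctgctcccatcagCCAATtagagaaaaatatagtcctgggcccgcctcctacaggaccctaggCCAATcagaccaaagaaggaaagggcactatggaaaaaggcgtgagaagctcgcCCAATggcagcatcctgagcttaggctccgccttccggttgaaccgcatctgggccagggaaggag
Ndufaf4: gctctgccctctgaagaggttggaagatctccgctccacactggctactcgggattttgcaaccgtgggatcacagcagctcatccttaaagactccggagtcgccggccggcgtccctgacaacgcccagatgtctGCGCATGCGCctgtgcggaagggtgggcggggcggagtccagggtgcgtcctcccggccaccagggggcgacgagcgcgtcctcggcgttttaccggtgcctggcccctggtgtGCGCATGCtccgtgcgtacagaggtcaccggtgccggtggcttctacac
Cox6b2: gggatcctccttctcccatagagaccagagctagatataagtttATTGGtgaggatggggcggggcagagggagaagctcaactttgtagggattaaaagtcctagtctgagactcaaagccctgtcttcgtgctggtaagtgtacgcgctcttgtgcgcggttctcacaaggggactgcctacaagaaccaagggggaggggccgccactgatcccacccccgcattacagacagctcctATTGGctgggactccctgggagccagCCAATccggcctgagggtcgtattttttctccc
Atp5b held 5 matches to CCAAT and none to the other motifs, Ndufs8 and Cox6b2 held 3 each, and Atp5g3 held 1 beside 1 ESRRA site. Ndufaf4 held 3 matches to the NRF1 core, a pair of which overlap, and no CCAAT. Among tested members with a window, 45.5% of 66 held CCAAT, against 43.1% of 6308 tested genes with a window. The NRF1 core was held by 15.2% of the members and 6.7% of the tested genes, the YY1 motif by 13.6 and 6.2%, the ESRRA site by 10.6 and 3.3% and the ETS motif by 7.6 and 10.9%. Among 19 members lower in both comparisons and 38 lower in neither, the NRF1 core was held by 21.1 and 15.8%, the ETS motif by 0.0 and 13.2%, the YY1 motif by 10.5 and 13.2%, the ESRRA site by 10.5 and 10.5%, and CCAAT by 36.8 and 55.3%. These are matches of letters and were not tested as sites.

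Core and accessory subunits were also counted apart, over all complexes. Of the 20 tested core subunits 14 were called lower with EGFR inhibitor (median log2 change -0.50), and of the 53 tested accessory subunits 17 (median -0.31). After withdrawal the counts were 12 of 20 (median -0.49) and 17 of 53 (median -0.24). Of all tested genes 22.2% were lower with EGFR inhibitor and 22.5% after withdrawal. Core subunits had a median level of 41.7 RPKM per kilobase of exon and a median of 546.5 reads per library, against 24.35 RPKM and 225.7 reads for accessory subunits, whose exons are shorter (median 2180 bases for core and 1381 bases for accessory subunits). Among members of at least 5 RPKM the counts were 11 of 14 core and 6 of 27 accessory subunits with EGFR inhibitor. After withdrawal they were 9 of 14 and 8 of 27. Of all genes at this floor 41.0 and 43.7% were lower, which core subunits exceeded and accessory subunits did not reach. Neither the difference between the classes nor the part of expression level in it was tested.

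Complex I had 12 of 39 tested genes (30.8%) lower in each comparison. Of all tested genes 22.2% were lower with EGFR inhibitor and 22.5% after withdrawal. From 5 RPKM upwards 41.0 and 43.7% of all genes were lower. These shares of all genes stand beside the counts of complexes II to V below as well. Besides Ndufs8, core subunits that fell in both included Ndufs1 and Ndufv2. Ndufs1, the largest subunit, had 2.31, 2.34 and 2.62 RPKM with EGFR inhibitor and 3.21, 3.47 and 3.53 RPKM with DMSO (log2 change -0.37 ± 0.08, adjusted p = 0.00191). Ndufv1, which binds NADH, was not called in either, at 9.98 ± 1.69 RPKM with EGFR inhibitor and 12.9 ± 0.727 RPKM with DMSO (SD, n = 3 each). Ndufc2, an accessory subunit, had 9.75, 9.44 and 9.11 RPKM with EGFR inhibitor and 15.8, 16.2 and 16.8 RPKM with DMSO (-0.73 ± 0.16, adjusted p = 0.00182). After withdrawal it had 9.04 and 9.40 RPKM, against 11.3 and 13.7 RPKM with HBEGF, and was not called (-0.40 ± 0.20, adjusted p = 0.15). Of the 5 tested assembly factors Ndufaf4 alone was called in either comparison, and the median over the 5 was -0.14 and -0.05.

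Complex II, which also serves the tricarboxylic acid cycle, had 3 of 4 genes lower with EGFR inhibitor and 2 of 4 after withdrawal. Sdha, the flavoprotein subunit, had 8.26, 7.75 and 7.43 RPKM with the inhibitor and 11.4, 12.7 and 12.5 RPKM with DMSO (log2 change -0.59 ± 0.08, adjusted p = 1.27e-05), without overlap. After withdrawal Sdha had 7.96 and 8.16 RPKM, against 10.6 and 11.9 RPKM with HBEGF, and changed by -0.43 ± 0.09 (adjusted p = 0.00177), a call lost with median-of-ratios scaling (adjusted p = 0.229). Sdhb, the iron-sulphur subunit, changed by -0.51 ± 0.11 with EGFR inhibitor (adjusted p = 0.00166) and by -0.38 ± 0.14 after withdrawal (adjusted p = 0.0433). The second call was lost without HBEGF replicate 1 (adjusted p = 0.302), without HBEGF withdrawal replicate 1 (adjusted p = 0.257), with median-of-ratios scaling (adjusted p = 0.346) and with mitochondrial genome reads left out of the scaling (adjusted p = 0.205). Sdhd, a membrane anchor, changed by -0.56 ± 0.16 with the inhibitor (adjusted p = 0.00881, and 0.059 without EGFR inhibitor replicate 2). Sdhc, the other anchor, was not called, at 3.10 ± 0.407 RPKM with EGFR inhibitor and 3.78 ± 0.151 RPKM with DMSO, and at 3.58 ± 0.686 RPKM after withdrawal and 3.38 ± 0.72 RPKM with HBEGF.

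Complex III had 4 of 9 genes lower in each comparison: Cyc1, Uqcrfs1, Uqcrc1 and Uqcrc2. Uqcrfs1, the Rieske iron-sulphur protein, had 6.73, 7.45 and 7.99 RPKM with EGFR inhibitor and 11.6, 12.9 and 11.9 RPKM with DMSO (log2 change -0.65 ± 0.10, adjusted p = 5.07e-05). It had 6.35 and 5.94 RPKM after withdrawal, against 10.2 and 10.5 RPKM with HBEGF (-0.67 ± 0.12, adjusted p = 0.000343). Cyc1 and Uqcrfs1, its nuclear subunits that carry electrons, and also Uqcrc2 kept their calls with every library left out in turn. Uqcrc1, a subunit of the matrix side counted here as accessory, lost its call without EGFR inhibitor replicate 2 (adjusted p = 0.0588). In the withdrawal comparison it lost its call whichever of the 4 libraries was left out (log2 change between -0.45 and -0.39).

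Complex IV had 5 of 14 genes (35.7%) lower with EGFR inhibitor, and 4 (28.6%) lower and 1 higher after withdrawal. Its catalytic centre is encoded on the mitochondrial genome, so its nuclear members are accessory subunits and their isoforms. Ndufa4, now counted as a complex IV subunit, had 8.60, 9.34 and 7.67 RPKM with EGFR inhibitor and 14.7, 14.1 and 14.2 RPKM with DMSO (log2 change -0.68 ± 0.10, adjusted p = 3.01e-05). It had 9.53 and 9.52 RPKM after withdrawal, against 17.2 and 14.9 RPKM with HBEGF (-0.69 ± 0.12, adjusted p = 0.000266). Cox4i1, the common form of subunit 4, lay at 38.6 ± 2.31 RPKM with EGFR inhibitor and 36.3 ± 0.197 RPKM with DMSO, and at 29.8 ± 2.37 RPKM after withdrawal and 31.5 ± 6.30 RPKM with HBEGF. Its log2 changes were 0.08 ± 0.21 and -0.06 ± 0.25, with neither called (adjusted p = 0.792 and 0.904), and the second was 0.24 with median-of-ratios scaling. Cox7a2, the common form of subunit 7a, changed by -0.55 ± 0.19 and -0.64 ± 0.24 (adjusted p = 0.0316 and 0.0476), and both calls were lost with median-of-ratios scaling (adjusted p = 0.0728 and 0.229). The first was also lost without DMSO replicate 2 or 3 or EGFR inhibitor replicate 1 or 3 (adjusted p between 0.0527 and 0.111), and the second whichever of the 4 libraries was left out (adjusted p between 0.111 and 0.166). Cox5a and Cox7b were called lower in both comparisons, and Cox6c with EGFR inhibitor. The withdrawal calls of Cox5a and Cox7b and that of Cox6c were lost in some fits with a library left out. Cox6a1 and Cox8a, other common forms, and Cox7a2l, a relative of Cox7a2, were called in neither comparison. Their log2 changes with EGFR inhibitor were -0.34, -0.40 and 0.12.

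Cox6b2 was the one member called higher after withdrawal. It is the testis-enriched form of subunit 6b (chr7:4751792-4753094, minus strand), the common form being Cox6b1. Cox6b2 had 16.0 and 7.48 RPKM after HBEGF withdrawal, against 2.17 and 2.14 RPKM with HBEGF (log2 change 1.93 ± 0.29, adjusted p = 5.9e-05). The withdrawal libraries were both higher and differed from each other. With EGFR inhibitor it had 4.62, 2.69 and 5.19 RPKM, against 3.28, 4.49 and 3.36 RPKM with DMSO, and these overlapped (0.11 ± 0.23, adjusted p = 0.76). Cox6b1 had 5.86 and 4.32 RPKM after withdrawal, against 6.61 and 4.99 RPKM with HBEGF (-0.16 ± 0.24, and 0.10 with median-of-ratios scaling). Per kilobase of exon Cox6b2 made up 17.1% of the pair after withdrawal and 3.2% with HBEGF, and between 4.3 and 9.7% in the other groups. Among the other rare isoforms, Cox6a2 was at 0 in all EGFR inhibitor libraries and reached 2.31 RPKM in a P53 DMSO library, and was called in no comparison.

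Complex V had 8 of 15 genes lower in each comparison. Of its catalytic head Atp5a1, Atp5b and Atp5c1, the alpha, beta and gamma subunits, fell in both. Atp5a1 changed by -0.85 ± 0.10 with EGFR inhibitor (adjusted p = 5.31e-06) and by -0.81 ± 0.13 after withdrawal (adjusted p = 9.51e-05). Atp5c1 changed by -0.55 ± 0.09 (adjusted p = 0.000143) and -0.82 ± 0.11 (adjusted p = 3.21e-05). Atp5a1 had 57.4, 54.1 and 50.4 RPKM with the inhibitor, against 90.1, 100.3 and 104.0 RPKM with DMSO. The 3 rotor ring genes code for the same mature protein, and Atp5g3 was by far the most abundant. Atp5g1 lay at 1.39 ± 0.324 RPKM with EGFR inhibitor and 1.73 ± 0.349 RPKM with DMSO, with overlap (log2 change -0.19 ± 0.19), and Atp5g2 was too low to be tested. Among members that overlap genes on the other strand are Atp5a1, Ndufs1, Cox4i1 and Ndufb2 (Haus1, Eef1b2, Emc8 and Braf). Others include Uqcrc2, Atp5f1, Ndufa9, Cox5a, Cox6c, Cox6a2, Atp5d and Ndufa13. Reads of the overlapping genes cannot be told apart from theirs, since no strand setting is given. No gene on the other strand overlaps Atp5b, Cyc1, Atp5g3, Ndufs8, Ndufaf4, Sdha or Cox6b2.

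**Figure D3:**
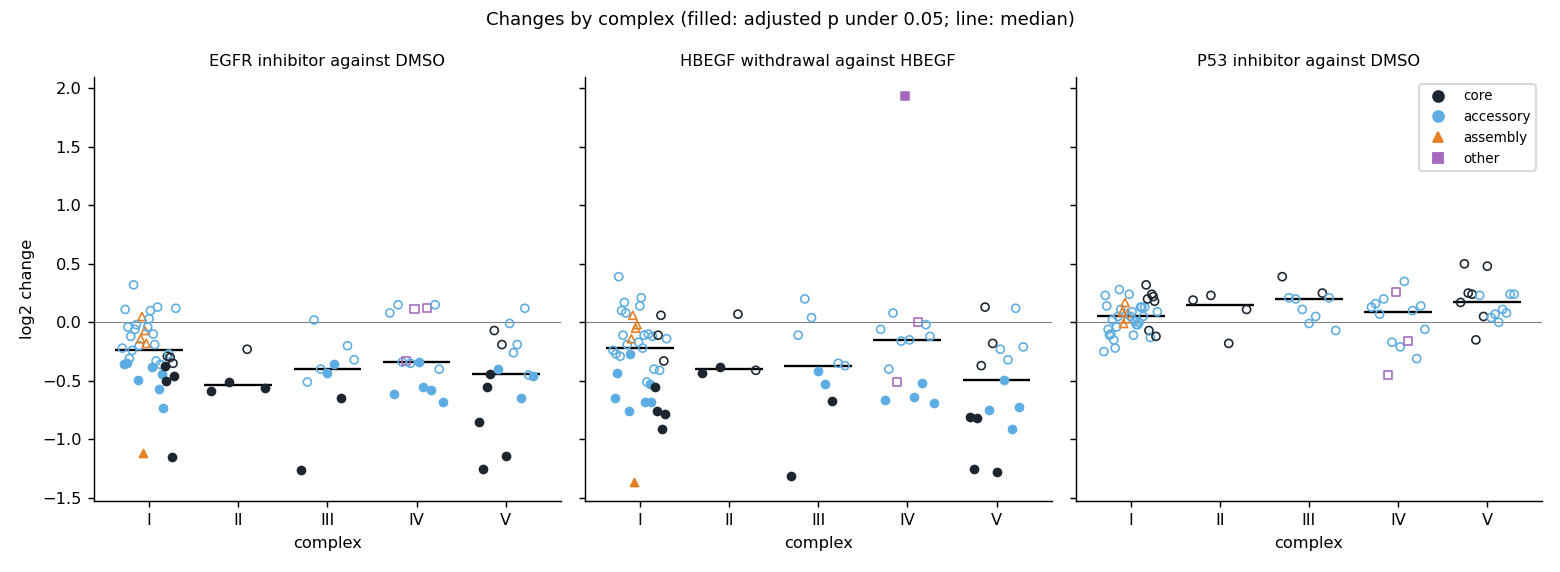
Log2 change of each tested gene by complex, with EGFR inhibitor, after HBEGF withdrawal and with P53 inhibitor. Filled symbols have an adjusted p below 0.05 and lines are medians. The medians of complexes I to V are -0.24, -0.53, -0.40, -0.34 and -0.44 with EGFR inhibitor, -0.22, -0.40, -0.37, -0.16 and -0.49 after withdrawal, and 0.05, 0.15, 0.20, 0.08 and 0.17 with P53 inhibitor.

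Both comparisons called 25 members lower, which is 78.1% of the 32 members lower with EGFR inhibitor and 83.3% of the 30 lower after withdrawal. For all tested genes these shares were 72.4 and 71.3%. Of the 25, 16 were also called in both comparisons under both other scalings and with voom on the recovered reads. Among them were Atp5a1, Atp5b, Atp5c1, Atp5f1, Atp5g3, Cyc1, Uqcrc2, Uqcrfs1, Ndufa4, Ndufa9, Ndufa10, Ndufaf4, Ndufs1, Ndufs8 and Ndufv2. Across the 84 genes the log2 changes correlated with Pearson's r = 0.728, and across all tested genes with r = 0.611, as a description, since genes of one library are not independent. The test of the difference between both changes called 1 member, Cox6b2 (-1.82 ± 0.37, adjusted p = 0.0155), against 1.83% of all genes. This call was lost without HBEGF replicate 1 (adjusted p = 0.057) and without HBEGF withdrawal replicate 1 (adjusted p = 0.0756).

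**Figure D4:**
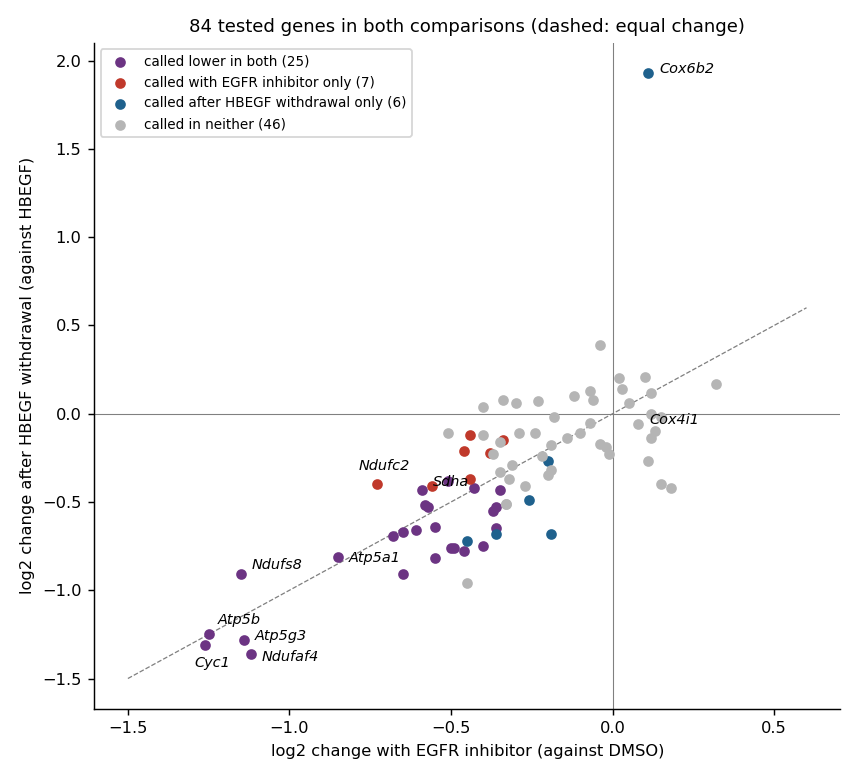
Log2 change after HBEGF withdrawal against log2 change with EGFR inhibitor for the 84 tested genes. The 25 genes called lower in both lie at the lower left, near the line of equal change, and Cox6b2 lies apart at the top, at 1.93 after withdrawal and 0.11 with EGFR inhibitor.

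P53 inhibitor against DMSO gave no call among the members. By limma 0 of 84 were called in either direction, 11 had an unadjusted p below 0.05, and voom called 1 higher. Few genes were called at all, 0.0289% of them higher and 0.152% lower. The members' median was 0.08 and that of all genes -0.01. Without P53 DMSO replicate 1 the members' median was 0.02. Atp5b had 521, 537 and 444 RPKM with P53 inhibitor and 303, 368 and 391 RPKM with DMSO (log2 change 0.50 ± 0.11, adjusted p = 0.0765). Its groups did not overlap, and it passed the threshold with median-of-ratios scaling (adjusted p = 0.0344), with mitochondrial genome reads left out of the scaling (adjusted p = 0.0453) and by voom (adjusted p = 0.00834). Atp5g3 had 91.4, 99.9 and 84.2 RPKM with P53 inhibitor and 55.9, 75.6 and 66.3 RPKM with DMSO (0.48 ± 0.12, adjusted p = 0.146). Without overlap between groups 15 members (17.9%) were higher and 5 (5.95%) lower, against 9.05 and 11.3% of all genes. The test of the change with EGFR inhibitor minus that with P53 inhibitor called 27 members (32.1%), all more negative with EGFR inhibitor. It called 16.6% of all genes in that direction and 13.2% in the other, which is 29.8% in either direction. From 5 RPKM upwards 37.0% of 46 members and 30.9% of 2354 genes were more negative. Atp5b led the members in this test at -1.75 ± 0.15 (adjusted p = 8.71e-07).

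The untreated cultures showed few calls over time. Between day 14 and day 2, 2 members were higher (Ndufa4 and Ndufb2) and 2 lower (Cyc1 and Ndufab1), against 5.55% of all genes higher and 17.6% lower. The median was 0.08 over the members and -0.11 over all genes. Between day 7 and day 2, 3 were higher (Ndufb2, Ndufb3 and Cox7a2l) and 2 lower (Cyc1 and Atp5b), against 4.12 and 9.59% of all genes, with medians of 0.10 and -0.05. Between day 14 and day 7, 0 of 84 were called by limma or voom, and 1 had an unadjusted p below 0.05, against 0.0505% of all genes called higher and 0.0866% lower. Cyc1 had 60.1, 67.3 and 57.7 RPKM on day 2, 43.5, 42.1 and 39.7 RPKM on day 7, and 37.5, 54.2 and 43.4 RPKM on day 14. All day 2 libraries were above those of the later days, with log2 changes of -0.55 ± 0.13 on day 7 (adjusted p = 0.00945) and -0.46 ± 0.13 on day 14 (adjusted p = 0.0159). The first call was lost without day 2 replicate 2 (adjusted p = 0.0541). The second was lost without that library (adjusted p = 0.0773), without day 14 replicate 1 (adjusted p = 0.106) and with median-of-ratios scaling (adjusted p = 0.14). The call kept in 3 of 6 fits with a library left out was that of Ndufb2 on day 7, and the calls other than this one and those of Cyc1 were kept in 0, 1 or 2 of 6. The adjusted p then reached 0.142 for Atp5b, 0.108 for Cox7a2l, 0.191 for Ndufb3, 0.141 for Ndufb2, 0.224 for Ndufa4 and 0.134 for Ndufab1.

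The direction over time depends on the scaling and on single libraries. Without day 2 replicate 3 the members' median was -0.09 on day 14 against day 2 and -0.05 on day 7 against day 2. Without day 14 replicate 2 it was -0.03 on day 14 against day 2. With median-of-ratios scaling, which set the median of all genes at 0, 13 members were higher on day 14 than on day 2 and 0 lower, and the members' median was 0.24. All genes then split into 1204 higher and 1140 lower, against 769 higher and 2439 lower under the deposited scaling. With mitochondrial genome reads left out of the scaling, 8 members were higher and 0 lower. All 13850 genes then split into 1071 higher and 1395 lower. Reads of the mitochondrial genome took 16.0 ± 2.35, 21.01 ± 0.301 and 24.2 ± 2.14% on days 2, 7 and 14 (SD, n = 3 each). Most were mitochondrial ribosomal RNA, at 14.5 ± 1.99, 19.17 ± 0.249 and 21.76 ± 1.91%.

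Most lists of mitochondrial partner genes had more genes lower than higher with EGFR inhibitor and after withdrawal, as had all tested genes. Of all tested genes 22.2% were lower and 16.3% higher with EGFR inhibitor, and 22.5 and 10.0% after withdrawal. Of genes averaging 5 RPKM or more, 41.0 and 43.7% were lower. Of 12 tested tricarboxylic acid cycle genes 10 were lower with EGFR inhibitor and 9 after withdrawal, with 0 higher in either (medians -0.46 and -0.71). Cs, citrate synthase, averaged 13.7 ± 0.662 RPKM with EGFR inhibitor and 29.3 ± 3.07 RPKM with DMSO (log2 change -1.04 ± 0.11, adjusted p = 1.2e-06). Among 15 genes for cytochrome c, the ATPase inhibitor and exchange carriers, 10 and 9 were lower, and 1 was higher after withdrawal (medians -0.49 and -0.52). Slc25a5, an ADP/ATP carrier that feeds complex V, averaged 17.0 ± 1.09 RPKM after withdrawal and 80.5 ± 5.04 RPKM with HBEGF (-2.18 ± 0.15, adjusted p = 3.11e-08). Of 27 protein import genes 13 were lower in each (medians -0.37 and -0.45), and of 67 mitochondrial ribosome genes 32 and 34, with 1 higher with EGFR inhibitor (medians -0.29 and -0.41). Coenzyme Q synthesis had 4 and 3 of 7 lower (medians -0.26 and -0.11). The 30 tested assembly factors outside the Ndufaf names moved less evenly, with 5 lower and 4 higher with EGFR inhibitor. After withdrawal 6 were lower and 2 higher (medians -0.13 and -0.16). Their lower shares were below those of all tested genes.

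Genes that steer fuel towards or away from the chain moved in both directions. The shares of all tested genes given above stand beside these counts too. Of 9 pyruvate dehydrogenase genes and regulators 4 were lower and 5 higher in each comparison (medians 0.43 and 0.42). Dlat, a subunit of the enzyme, averaged 2.22 ± 0.0324 RPKM with EGFR inhibitor and 4.36 ± 0.36 RPKM with DMSO (log2 change -0.74 ± 0.09, adjusted p = 5.31e-06). Pdk4, a kinase that inactivates the enzyme, averaged 5.90 ± 0.535 RPKM with EGFR inhibitor and 1.36 ± 0.0961 RPKM with DMSO (1.54 ± 0.12, adjusted p = 3.75e-08). Of 14 glycolysis genes 7 were lower and 3 higher with EGFR inhibitor, and 5 lower and 3 higher after withdrawal (medians -0.37 and -0.14). Ldha, lactate dehydrogenase A, averaged 4.78 ± 0.163 RPKM with EGFR inhibitor and 27.3 ± 1.08 RPKM with DMSO (-2.29 ± 0.15, adjusted p = 6.83e-09). Of 16 transcriptional and mitochondrial DNA regulators 6 were lower and 3 higher with EGFR inhibitor, and 9 lower and 0 higher after withdrawal (medians -0.13 and -0.40). Myc averaged 11.4 ± 0.802 RPKM with EGFR inhibitor and 39.2 ± 5.94 RPKM with DMSO (-1.69 ± 0.16, adjusted p = 4.2e-07). The 8 tested proteins encoded on the mitochondrial genome had medians of 0.05 with EGFR inhibitor and -0.19 after withdrawal. With EGFR inhibitor 2 were lower and 1 higher, near the shares of all tested genes, and after withdrawal 1 was lower. On day 14 against day 2, 6 were higher (median 0.72), against 5.55% of all tested genes. The P53 inhibitor gave 0 calls by limma in any of these lists.

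**Figure D5:**
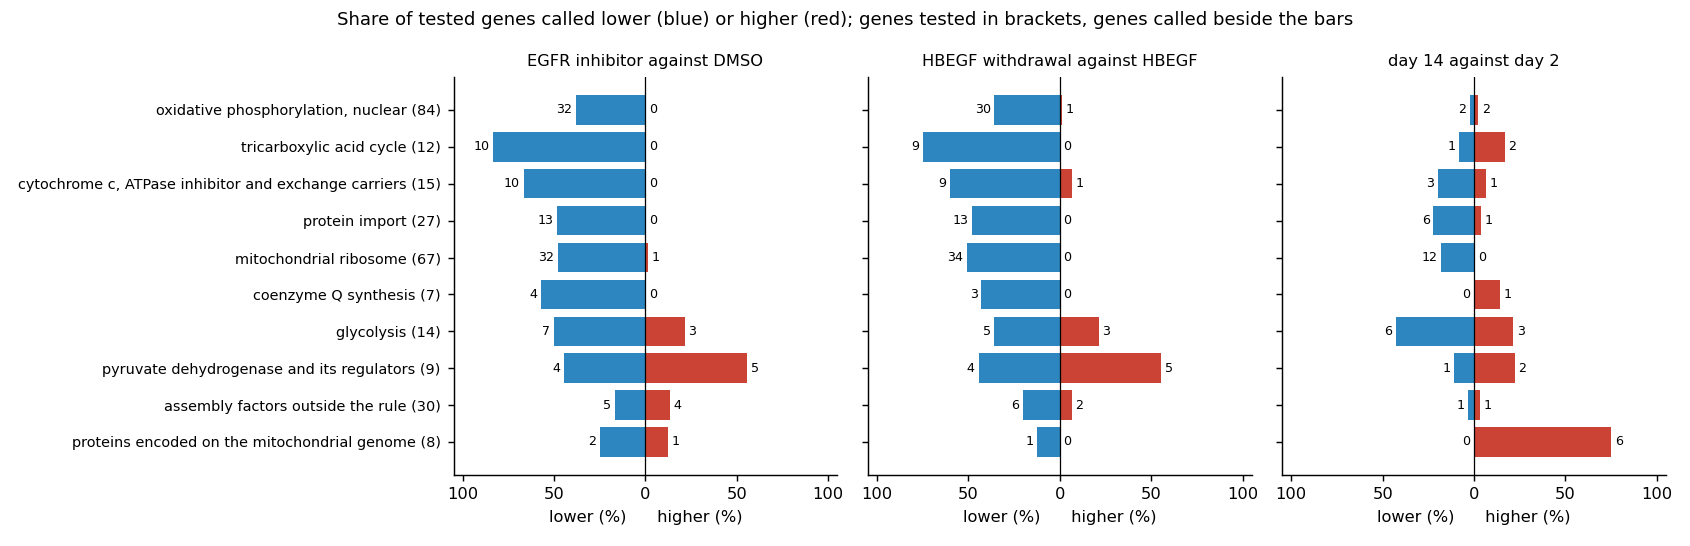
Share of the tested genes of each list called lower (blue, leftward) or higher (red, rightward), with EGFR inhibitor, after HBEGF withdrawal and on day 14 against day 2. Nuclear oxidative phosphorylation genes had 32, 30 and 2 of 84 lower, against 22.2, 22.5 and 17.6% of all tested genes. Tricarboxylic acid cycle genes had 10, 9 and 1 of 12 lower, and 6 of 8 proteins encoded on the mitochondrial genome were higher on day 14.

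Cell type markers differed in these comparisons and over time. The 10 astrocyte markers summed to 369 to 389 RPKM with EGFR inhibitor, against 116 to 146 RPKM with DMSO, with 6 higher and 1 lower, and to 279 to 303 RPKM after withdrawal, against 122 to 128 RPKM with HBEGF, with 5 higher and 2 lower. Of the same 10 markers 7 were higher on day 14 and 7 on day 7, both against day 2 (medians 0.92 and 0.71). With P53 inhibitor 0 were called (median -0.04). The 6 oligodendrocyte precursor markers, whose sum is mostly Olig1 and Olig2, summed to 114 to 137 RPKM with EGFR inhibitor and 322 to 418 RPKM with DMSO (1 higher, 3 lower), and to 92.5 to 98.7 RPKM after withdrawal and 391 to 418 RPKM with HBEGF (3 lower). The 6 oligodendrocyte markers summed to 6.71 to 7.19 RPKM with EGFR inhibitor and 3.54 to 5.36 RPKM with DMSO (1 of 5 tested higher), and to 26.8 to 29.3 RPKM after withdrawal and 8.65 to 17.6 RPKM with HBEGF (4 of 5 higher). The 9 neuron markers stayed between 2.98 and 8.51 RPKM in sum over all libraries, with 3 of 3 tested higher with EGFR inhibitor and 0 after withdrawal. The 7 microglia markers summed to at most 0.716 RPKM with EGFR inhibitor and 1.45 RPKM after withdrawal. The 5 endothelial markers summed to at most 0.359 RPKM in any library and the 6 pericyte or fibroblast markers to at most 1.97 RPKM, with 1 of 1 tested higher in both comparisons. Kcnj8, a pericyte marker, was at 0 in every library. On days 2, 7 and 14 the sum of the oligodendrocyte precursor markers averaged 358, 379 and 390 RPKM, with 1 lower on day 14 against day 2. With P53 inhibitor it averaged 430 RPKM, against 469 RPKM with DMSO, and 0 were called. The part of these cell types in the members' change was not tested.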

How the data were processed

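RNA was extracted with a miRNeasy kit, turned into cDNA with an Ovation kit and sequenced, per the labels' protocols. The authors deposited RPKM values for 54429 entries. The submitters' processing notes name STAR, HTSeq, edgeR, limma and the GRCm38 build, with no versions. The deposited RPKM sums show that lengths are whole gene spans: RPKM times the GENCODE M21 span sums to between 999128 and 1002611 in each library. Whole reads were recovered from it (at least 99.0% of values of up to 20 reads were whole within 0.1), giving each library's depth.

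Genes with at least 1 RPKM in at least 2 libraries (13850) were tested on log2(RPKM + 1) with limma 3.58.1 (R 4.3.3; trend and robust options) in a fit of all 9 group means with 16 residual degrees of freedom. Benjamini-Hochberg adjustment ran over all tested genes, and an adjusted p below 0.05 was a call. The fit was also run on simulated data with normal spread and no shift in scaling, which cannot speak for calls that depend on the scaling. Alternatives were a pseudocount of 0.1, no filter, median-of-ratios scaling, scaling without mitochondrial genome genes, voom on recovered reads (13726 genes), each experiment alone, a replicate block, and each library left out.

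Members and lists were chosen, and genes assigned to complexes, with earlier results of these data known. Named genes were up to 8 called members per comparison and direction by size of change, isoform sets, key catalytic subunits, and up to 4 genes per list by p. Genes given only as names, Atp5d, Atp5e, Uqcrc1, Uqcrc2 and Ndufv2 were chosen after their values were seen. The values of 1 member are not reported here. The 9 groups follow the labels. Figures came from matplotlib 3.10.9 and tables from pandas 2.3.3, under Python 3.11.15. Depth limits the precision of low genes, and counting error is part of the spread between libraries.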

Additional observations from a re-analysis of the deposited data

Results flagged for a closer look

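The change with EGFR inhibitor and the change after HBEGF withdrawal differed by test in 1 member, and in 1.83% of all genes. Cox6b2 had a log2 difference of -1.82, its changes being 0.11 with EGFR inhibitor and 1.93 after withdrawal, with the withdrawal libraries at 16.0 and 7.48 RPKM. The call was lost without HBEGF replicate 1 (adjusted p = 0.057), without HBEGF withdrawal replicate 1 (adjusted p = 0.0756) and with the replicate block (adjusted p = 0.0518).

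The change with EGFR inhibitor and the change with P53 inhibitor differed by test in 27 members (32.1%), each more negative with EGFR inhibitor. Of all genes 16.6% were called in that direction and 13.2% in the other. The log2 differences were -1.75 for Atp5b, -1.61 for Atp5g3, -1.65 for Cyc1 and -0.90 for Uqcrfs1. In complex II they were -0.77 for Sdha, -0.73 for Sdhb and -0.67 for Sdhd. In complex I the difference was -0.69 for Ndufs1, and in complex IV it was -0.62 for Ndufa4 and -0.90 for Cox7a2. The call of Sdhd was lost in 4 of 12 fits that left out a library (adjusted p up to 0.0853) and that of Cox7a2 without P53 DMSO replicate 1 (adjusted p = 0.0566).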

How the results depend on the processing

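Among 133 log2 changes of named members, 40 turned sign in at least 1 alternative, in 91 fits in all, and 0 of these were called in either fit. In calls, median-of-ratios scaling moved 8 above and 8 below the threshold, and a pseudocount of 0.1 moved 1 below. For other counts the cause was not tested. The count of members higher with EGFR inhibitor was 1 with median-of-ratios scaling. After HBEGF withdrawal, members higher numbered 2 with no filter, 3 with median-of-ratios scaling, 2 with mitochondrial genome genes left out of the scaling and 0 in the experiment alone. Members lower numbered 17 with median-of-ratios scaling, 0 alone, and 19 to 26 with a library left out. Members higher with P53 inhibitor numbered 1 with median-of-ratios scaling, without mitochondrial genome genes and by voom. On day 14 against day 2, members higher numbered 0 with no filter, 13 with median-of-ratios scaling, 8 without mitochondrial genome genes, 0 alone, 0 by voom and 0 to 5 with a library left out. Members lower numbered 0 with median-of-ratios scaling, without mitochondrial genome genes and alone, and 0 to 2 with a library left out. On day 7 against day 2, members higher numbered 0 alone, 1 by voom and 0 to 1 with a library left out. Members lower numbered 1 with no filter, with median-of-ratios scaling and without mitochondrial genome genes, 0 alone, and 0 to 3 with a library left out. The test of EGFR inhibitor minus withdrawal called 0 to 1 members with a library left out.

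Same-numbered libraries did not deviate together in every pair (correlations between -0.0951 and 0.118), so the numbers are not read as pairs. With a replicate block 32 members were lower with EGFR inhibitor and 31 after withdrawal. The block gave 0 members higher on day 14 against day 2, 1 higher and 1 lower on day 7 against day 2, and 0 for EGFR inhibitor minus withdrawal. The filter left 14 members untested. With no filter Ndufaf2 was called lower with EGFR inhibitor (adjusted p = 0.0272) and after withdrawal (adjusted p = 0.00491). After withdrawal Ndufaf6 was also lower (adjusted p = 0.0257) and Cox8b higher (adjusted p = 0.0133).

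The log2 changes that turned sign, all called in neither fit, are given next. With EGFR inhibitor fits with a library left out ran from -0.04 to 0.33 for Cox6b2. After withdrawal fits with a library left out ran from -0.26 to 0.13 for Cox4i1, -0.14 to 0.29 for Cox6a1, -1.02 to 0.01 for Cox6a2, -0.34 to 0.02 for Cox6b1, -0.05 to 0.06 for Cox7a2l, -0.34 to 0.09 for Cox8a, -0.48 to 0.11 for Atp5g1 and -0.10 to 0.23 for Sdhc. The sign also turned with median-of-ratios scaling (0.24 for Cox4i1, 0.10 for Cox6b1, 0.17 for Cox8a and 0.02 for Atp5g1) and without mitochondrial genome genes (0.14 for Cox4i1, 0.02 for Cox6b1 and 0.08 for Cox8a). With P53 inhibitor fits with a library left out ran from -0.01 to 0.26 for Cox4i1 and -0.05 to 0.13 for Atp5g1. On day 14 against day 2, fits with a library left out ran from -0.01 to 0.33 for Cox6a1, -0.15 to 0.29 for Cox6b1, -0.40 to 0.03 for Cox7a2, -0.29 to 0.07 for Atp5g1, -0.15 to 0.09 for Atp5g3, -0.30 to 0.06 for Sdhd and -0.11 to 0.26 for Ndufv1. The sign also turned with median-of-ratios scaling (0.03 for Cox7a2, 0.07 for Atp5g1, 0.20 for Atp5g3 and 0.11 for Sdhd) and without mitochondrial genome genes (0.03 for Atp5g1, 0.14 for Atp5g3 and 0.06 for Sdhd). On day 7 against day 2, fits with a library left out ran from -0.03 to 0.26 for Cox6a1, -0.17 to 0.27 for Cox6a2, -0.07 to 0.37 for Cox6b1, -0.03 to 0.32 for Cox6b2, -0.27 to 0.17 for Cox7a2, -0.18 to 0.18 for Atp5g1, -0.02 to 0.18 for Ndufa4, -0.06 to 0.04 for Sdha, -0.03 to 0.20 for Sdhc, -0.32 to 0.03 for Sdhd, -0.08 to 0.06 for Ndufs1 and -0.22 to 0.15 for Ndufv1. The sign also turned with median-of-ratios scaling (0.06 for Cox7a2, 0.06 for Sdha, 0.06 for Ndufs1 and 0.08 for Ndufv1), without mitochondrial genome genes (0.06 for Cox7a2, 0.06 for Sdha, 0.06 for Ndufs1 and 0.07 for Ndufv1), and by voom (0.00 for Atp5g1). On day 14 against day 7, fits with a library left out ran from -0.08 to 0.23 for Cox4i1, -0.17 to 0.18 for Cox6a1, -0.25 to 0.07 for Cox6b1, -0.34 to 0.00 for Cox7a2, -0.22 to 0.10 for Cox8a, -0.04 to 0.20 for Atp5g3, -0.14 to 0.00 for Sdhb, -0.02 to 0.20 for Sdhc, -0.09 to 0.09 for Sdhd and -0.05 to 0.21 for Cyc1. The sign also turned with median-of-ratios scaling (0.02 for Cox6b1, 0.08 for Cox8a and 0.03 for Sdhb) and without mitochondrial genome genes (0.03 for Cox8a).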
